A study of Rattus norvegicus with 12 samples.

Results

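The proteasome is the barrel-shaped protease that degrades proteins tagged with ubiquitin. Its genes were read here from 12 single-colour arrays of rat liver cells, 3 in each of 4 groups. They were chosen by gene name: every probe that is no control and whose name is Psm, then a letter from a to g, then a digit. That rule found 50 gene names on 57 probes. They became 49 genes once Psma3l, whose probe RefSeq assigns to Psma3, was joined to that gene, out of 35833 genes on the array. Of the 49, 47 encode subunits, activators, an inhibitor or assembly chaperones. The other 2 match by name alone: Psmc3ip encodes a protein that binds a proteasome ATPase and works in meiosis, and Psme1-ps1 is a pseudogene of Psme1.

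The cultured cells were small hepatocytes, hepatocytic progenitors of the rat liver, from the F344 strain (positive for DPPIV). They were obtained by collagenase perfusion, plated in medium without serum (10 ng/mL EGF, 10 mM nicotinamide), sorted on day 9 by magnetic beads for CD44, and then grown on Matrigel. At passage 2 they were kept for 3 h on 1 of 3 coatings. The group LN111 was on laminin-111 and the group LN511 on laminin-511, both basement membrane proteins, and the group Mat was on Matrigel, a tumour matrix extract that holds laminin. Mature hepatocytes (MH), taken from fresh livers of the same strain, were the control, so culture, passage and cell type change together between MH and the rest. The rats were adult. How the replicates were obtained (animals, cultures or repeats of 1 sample) is not given in the sources used here, so p-values cover the spread of these 12 samples only, and that spread may be technical. In bulk samples such as these, fewer cells of a type and less RNA per cell cannot be told apart.

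The proteolytic core consists of stacked rings of alpha and beta subunits. The catalytic sites lie on Psmb5 (cutting after hydrophobic residues), Psmb6 (after acidic residues) and Psmb7 (after basic residues). Interferon-gamma induces alternative catalytic subunits, Psmb8, Psmb9 and Psmb10, which take the places of Psmb5, Psmb6 and Psmb7 and form the immunoproteasome, a source of peptides for presentation on MHC class I. The 19S particle caps the core: its base holds a ring of ATPases that unfolds substrates, and its lid holds the enzyme that removes ubiquitin. The 11S activator of Psme1 and Psme2 is an alternative cap, also induced by interferon. In liver the immunoproteasome is abundant in resident immune cells and can be induced in hepatocytes.

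The labels were checked by markers. Cd44, the sort marker, was well above background on every cultured array and on none of the 3 MH arrays, as was the biliary keratin Krt19. Albumin (Alb) read 5.29 to 6.53 in culture and 7.18 to 7.49 in MH, and the hepatocyte factor Hnf4a 0.55 to 2.87 and 3.44 to 4.03, so both genes were measured in every group. MH replicate 2 and LN111 replicate 3 stood apart for these genes and are described separately.

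The proteasome genes were mostly lower in the cultured cells than in mature hepatocytes, and the immune-type subunits Psmb8 and Psmb9 showed the largest differences. Of the 49 genes, 48 passed the filter on low signals. Of those 48, 40 were lower and 2 higher in the mean of the 3 cultured groups than in MH (limma, Benjamini-Hochberg adjusted p under 0.05), where 72.8% of all 18915 genes tested passed, 42% as lower and 30.8% as higher. The median difference of the 48 was -1.09 on the log2 scale, against -0.18 for all genes tested. Psma8, an alpha subunit made in testis, was not tested, being well above background on 4 of 12 arrays.

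These differences are relative to a scale set by each array's 75th percentile, and their size depends on it. Without any scaling between arrays the median of all genes moved to 0.86 and that of the proteasome genes to -0.05, with 7 lower and 7 higher. With normexp background correction and the same percentile the medians were -0.40 and -1.08, with 42 lower and 1 higher. With quantile scaling they were 0.18 and -0.19, with 18 lower and 5 higher. With the percentile taken over probes detected on all arrays they were 0.32 and -0.59, with 32 lower and 4 higher. The shares of all genes called under these other settings are not given here. The median of the proteasome genes thus lay below that of all genes by 0.91 with the 75th percentile of all probes and by 0.37 with quantile scaling. Without scaling, or with the percentile over detected probes, the gap is 0.91 by construction. Those settings shift all genes of an array equally, so they are no separate check of it. MH arrays were also dimmer, with a 75th percentile of 757 to 961 against 1130 to 3090 intensity units in the cultured groups, and 52.2% to 54.2% of their spots were well above background against 55.9% to 62.7%.

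Of the 48 genes, 7 were called lower under all 5 settings just given (called scalings from here on): Psmb8, Psmb9, Psme1, Psme1-ps1, Psmf1, Psmg1 and Psmd9. A further 11 passed as lower in all but the unscaled values: Psmb1, Psmb2, Psmb3, Psmb5, Psmb7, Psmb10, Psmc6, Psmd7, Psmd11, Psme4 and Psmg4. Psmc3ip alone was higher under all 5. How many of all genes were called under all 5 was not counted, so these numbers have no background to be set against.

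**Figure D1:**
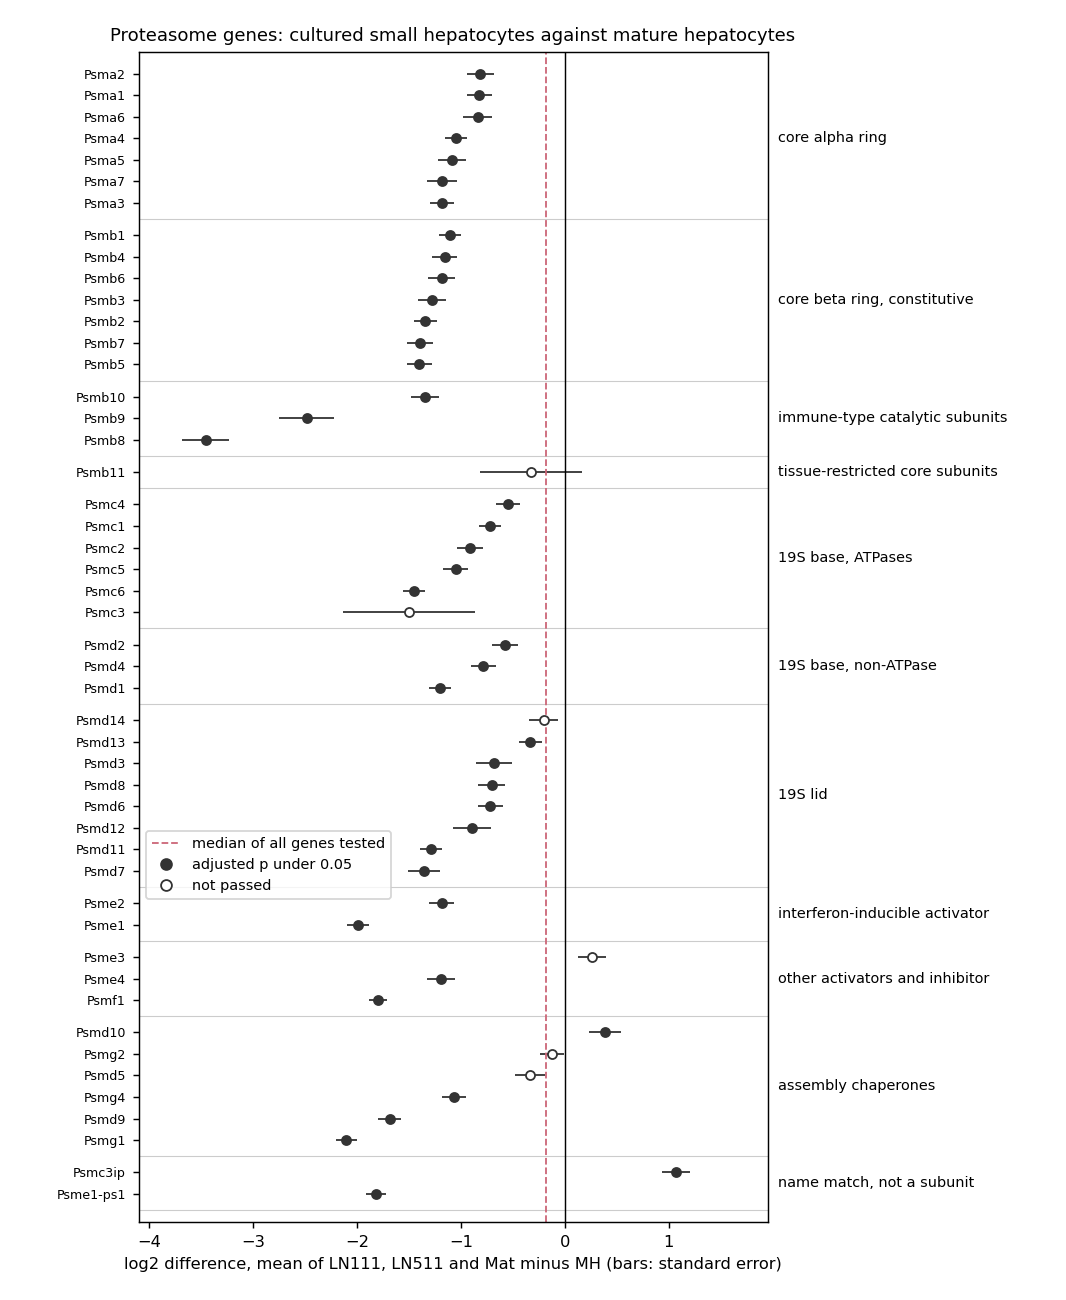
Log2 difference between the mean of the 3 cultured groups and MH for each of the 48 proteasome genes tested, grouped by role; bars are standard errors, filled points passed an adjusted p of 0.05, and the dashed line is the median of all genes tested (-0.18). The core rings lie close together between -1.40 and -0.81, while Psmb8 and Psmb9 lie far to the left at -3.46 and -2.48.

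The catalytic subunits are shown first by sequences of their probes, since Psmb8 and Psmb5 are related genes and their probes must tell them apart. For Psmb8 the dimmer of its probes is printed and aligned. The brighter one, which gave the Psmb8 values below, was not compared with the Psmb5 probe. Each probe has 60 bases and lies in the transcript the file names for it; capitals in the first pair mark bases that differ where the probes overlap when aligned without gaps (positions 28 to 60 of the Psmb8 probe, counted from its 5′ end, against 1 to 33 of the Psmb5 probe). In that stretch 19 of 33 bases are equal, and the longest run shared anywhere is 5 bases. The Psmb9 and Psmb6 probes also share no run longer than 5 bases.
Psmb8 probe: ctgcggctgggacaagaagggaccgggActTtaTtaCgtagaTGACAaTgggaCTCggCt
Psmb5 probe: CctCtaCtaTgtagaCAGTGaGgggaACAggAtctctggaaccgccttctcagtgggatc
Psmb9 probe: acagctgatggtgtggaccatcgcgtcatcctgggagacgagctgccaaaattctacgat
Psmb6 probe: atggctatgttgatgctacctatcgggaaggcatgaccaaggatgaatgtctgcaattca

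Psmb8 had the largest difference of all the proteasome genes. Its signal, as log2 over the array's 75th percentile, was 0.72, 0.70 and -0.01 on LN111, 0.96, 0.85 and 1.09 on LN511, 1.01, 0.92 and 0.93 on Mat, and 4.65, 3.60 and 4.51 in MH. All 9 cultured arrays were far below all 3 MH arrays, and MH replicate 2 was the lowest of the MH arrays. The difference was -3.46 ± 0.23 (SE; adjusted p = 3.28e-07, limma). The Psmb8 probe printed above, the dimmer of 2, gave -3.46 as well. Under the other 4 scalings the difference was -3.37 (normexp), -2.95 (percentile over detected probes), -2.52 (quantile) and -2.41 (none), and it passed each time.

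Psmb9 read -0.02, -0.19 and -0.83 on LN111, -0.06, -0.36 and -0.13 on LN511, 0.03, -0.07 and 0.05 on Mat, and 2.85, 1.50 and 2.58 in MH. The groups did not overlap, and again MH replicate 2 was lowest in its group. The difference was -2.48 ± 0.26 (SE; adjusted p = 1.16e-05, limma), a 5.60-fold lower signal.

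Psmb10 differed less. It read 1.49, 1.15 and 1.20 on LN111, 1.26, 1.08 and 1.11 on LN511, 1.35, 1.33 and 1.33 on Mat, and 2.69, 2.26 and 2.84 in MH. All cultured arrays lay below the MH arrays, with a difference of -1.34 ± 0.13 (SE; adjusted p = 7.07e-06, limma), within the range of the constitutive subunits. Without scaling it was -0.30 and did not pass (adjusted p = 0.275, limma).

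**Figure D2:**
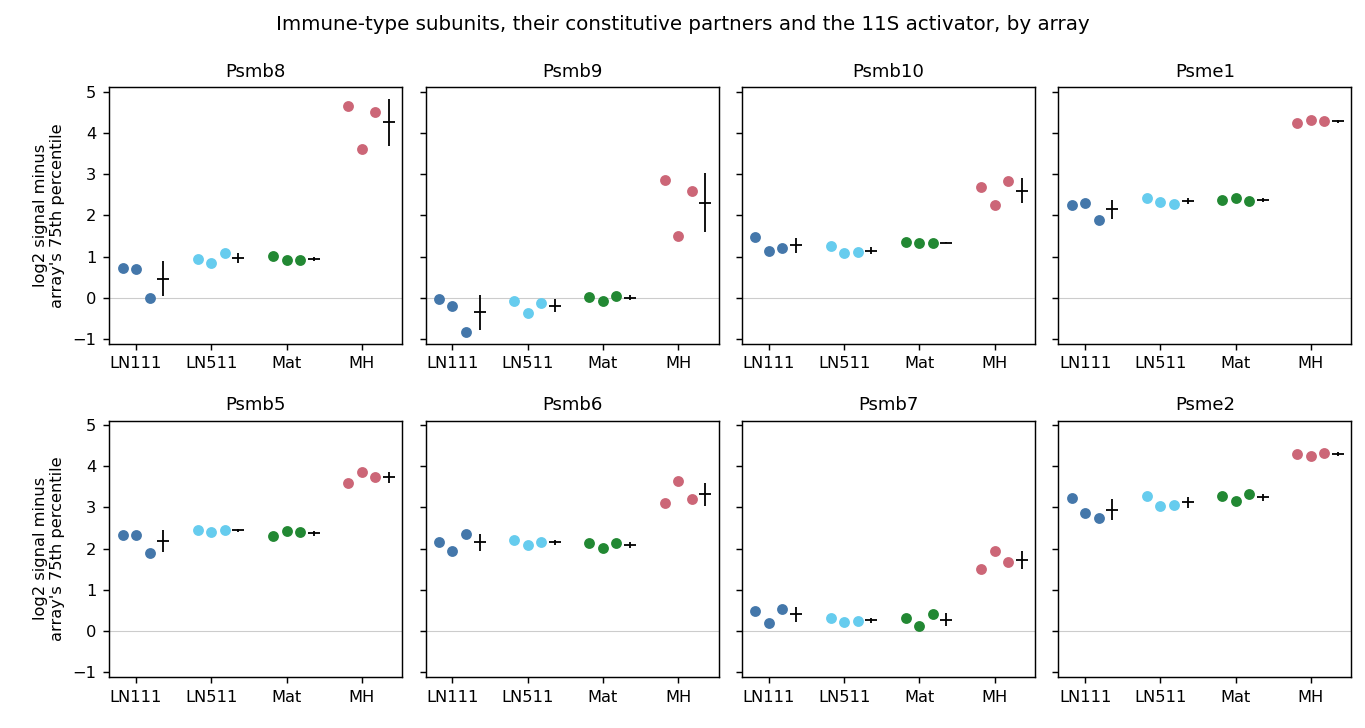
Log2 signal over the array's 75th percentile for the immune-type subunits and the constitutive subunits whose places they take (each pair in a column) and for both 11S activator genes; points are the 3 arrays of a group, and the black mark is the mean with its SD. Psmb8 and Psmb9 fall furthest between MH and the cultured groups, and MH replicate 2 is the lowest MH array for all 3 immune-type subunits and the highest for Psmb5, Psmb6 and Psmb7.

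The constitutive partners were lower too, by amounts near that of Psmb10 and smaller than those of Psmb8 and Psmb9. Psmb5 read 2.33, 2.34 and 1.89 on LN111, 2.45, 2.41 and 2.46 on LN511, 2.31, 2.42 and 2.40 on Mat, and 3.60, 3.86 and 3.74 in MH, a difference of -1.40 ± 0.12. Psmb6 read 2.16, 1.94 and 2.35 on LN111, 2.21, 2.09 and 2.16 on LN511, 2.13, 2.00 and 2.13 on Mat, and 3.10, 3.64 and 3.20 in MH, a difference of -1.19 ± 0.13. Psmb7 read 0.49, 0.20 and 0.54 on LN111, 0.33, 0.22 and 0.25 on LN511, 0.31, 0.13 and 0.42 on Mat, and 1.52, 1.94 and 1.69 in MH, a difference of -1.40 ± 0.12. In each of these genes the cultured arrays cluster tightly below MH, and MH replicate 2 is the highest array of all.

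Subtracting the log2 signal of the constitutive subunit from that of its immune-type partner within an array removes the scale, and its change between groups shows whether both moved equally. For Psmb8 against Psmb5 this difference was lower in culture, with a change of -2.06, a 4.16-fold shift, and no array overlapped: relative to the MH mean, the cultured arrays lay from -2.42 to -1.82 and MH from -0.78 to 0.53 (exact two-sided permutation test over arrays, p = 0.00909, the smallest that 9 against 3 allows; Benjamini-Hochberg over 3 pairs 0.0273). For Psmb9 against Psmb6 it was -1.30 (exact p = 0.0455, adjusted 0.0682), which did not pass, and MH replicate 2, at -1.13, lay inside the cultured range of -2.17 to -1.06. For Psmb10 against Psmb7 it was 0.05 (exact p = 0.664, adjusted 0.664), with cultured arrays from -0.22 to 0.32. Leaving out MH replicate 2 made the first pair -2.45 and the second -1.87, and turned the third to -0.23. On the slide that holds both Mat and MH arrays, Mat replicates 1 and 2 gave -1.92, -1.08 and 0.24 for the 3 pairs.

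**Figure D3:**
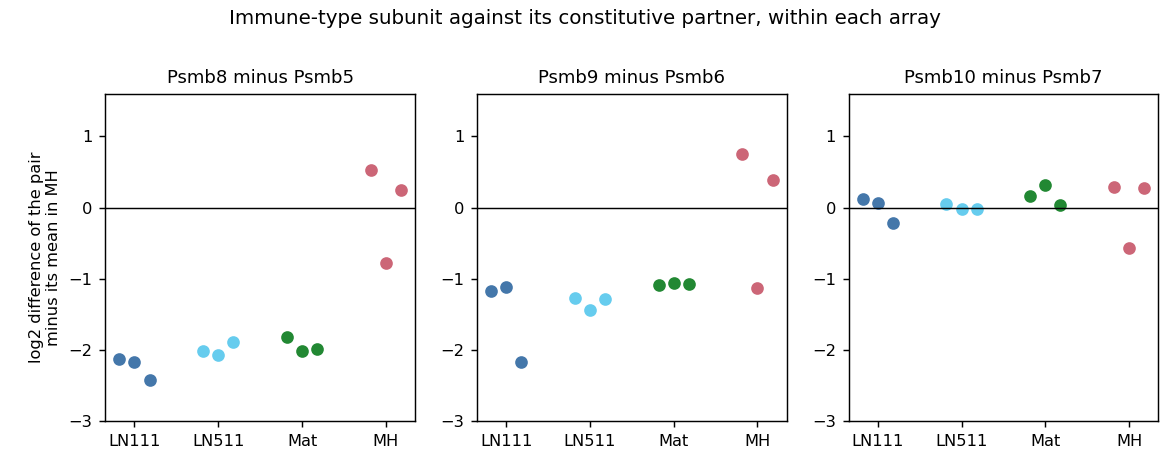
Difference in log2 signal between each immune-type subunit and the constitutive subunit it replaces, within each of the 12 arrays, minus the mean of that difference in MH (vertical axis, log2). Psmb8 against Psmb5 is separated between culture and MH on every array, Psmb9 against Psmb6 on every array except MH replicate 2, and Psmb10 against Psmb7 overlaps.

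Markers of other cells also differed between the groups, where 42% of all genes tested were called lower in culture and 30.8% higher. All 12 Kupffer cell and macrophage genes were lower in culture, with a summed level of 36.9 to 40.8 times the array's 75th percentile in MH against 0.31 to 7.05 on cultured arrays. The highest of these was LN511 replicate 1, and the other cultured arrays reached at most 1.56. With the slide as a block 9 of the 12 were called lower (8 on LN111, 7 on LN511 and 12 on Mat). The share of all genes called with that block is not given here. Clec4f was well above background on 3 of 3 MH arrays and 1 of 9 cultured ones; Marco, Adgre1 and Cd5l were so on no cultured array. These genes, Cd163 and C1qc passed the filter on low signals only through MH, where they were high. For them a lower call was close to fixed in advance. Of 7 tested leukocyte genes 5 were lower, with summed levels of 1.97 to 2.15 in MH and 0.33 to 0.61 in culture, and Ptprc was well above background on 3 MH arrays and 1 cultured array. All 8 tested endothelial genes were lower, with sums of 8.98 to 9.82 in MH and 0.10 to 0.63 in culture. Stab2, Pecam1, Lyve1, Plvap and Oit3 among them, and Ptprc and Gzma among the leukocyte genes, also passed the filter only through MH. The part of these cells in the differences of Psmb8, Psmb9, Psme1 and the antigen processing list was not tested. Of 8 stellate cell and fibroblast genes 3 were called higher, against 30.8% of all genes tested. Their summed levels were 48.4 to 81.5 on LN111, 18.1 to 30.6 on Mat and 2.16 to 10.8 on LN511. In MH they were 2.82 to 3.88, so LN511 overlapped MH.

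Psmb8 and Psmb5 changed by unequal amounts (-2.06 for the pair), Psmb9 against Psmb6 did not pass, and Psmb10 against Psmb7 changed by 0.05. A link between promoter motifs and these differences was not tested. The upstream sequences of Psmb8, Psmb9, Psmb10, Psmb5 and Psmb6 are given here as background. Each is the 250 bases before the RefSeq gene start in GRCr8, written 5′ to 3′ on the gene's strand: Psmb8 at chr20:4657032-4657281 on the minus strand, Psmb9 at chr20:4668750-4668999 on the plus strand, Psmb10 at chr19:50743293-50743542 on the minus strand, Psmb5 at chr15:32047380-32047629 on the minus strand and Psmb6 at chr10:55737638-55737887 on the plus strand. Capitals mark matches, on either strand, to TGACNNNGC (antioxidant response element core), TTTC, any 2 bases and TTTC again (interferon-stimulated response element core), TTCNNNGAA (gamma-activated site) or CCAAT.
Psmb8 promoter: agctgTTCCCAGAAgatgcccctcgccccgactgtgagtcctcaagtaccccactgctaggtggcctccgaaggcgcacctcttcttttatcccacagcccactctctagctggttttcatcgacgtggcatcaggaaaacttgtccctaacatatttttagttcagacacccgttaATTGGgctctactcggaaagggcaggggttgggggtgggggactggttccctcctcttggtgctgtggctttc
Psmb9 promoter: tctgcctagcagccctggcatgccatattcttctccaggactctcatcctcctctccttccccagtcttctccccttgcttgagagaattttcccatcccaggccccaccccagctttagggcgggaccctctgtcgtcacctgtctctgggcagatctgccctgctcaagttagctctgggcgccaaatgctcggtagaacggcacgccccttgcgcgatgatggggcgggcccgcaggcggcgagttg
Psmb10 promoter: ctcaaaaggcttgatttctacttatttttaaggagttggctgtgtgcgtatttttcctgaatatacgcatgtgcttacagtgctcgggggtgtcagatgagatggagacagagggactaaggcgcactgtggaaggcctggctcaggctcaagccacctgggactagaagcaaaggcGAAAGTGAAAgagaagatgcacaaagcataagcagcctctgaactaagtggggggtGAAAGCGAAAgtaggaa
Psmb5 promoter: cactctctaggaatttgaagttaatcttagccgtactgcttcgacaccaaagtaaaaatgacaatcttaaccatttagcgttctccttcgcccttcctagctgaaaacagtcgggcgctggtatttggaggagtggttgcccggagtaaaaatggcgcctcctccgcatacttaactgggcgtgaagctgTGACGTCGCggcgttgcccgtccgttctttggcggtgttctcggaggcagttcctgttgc
Psmb6 promoter: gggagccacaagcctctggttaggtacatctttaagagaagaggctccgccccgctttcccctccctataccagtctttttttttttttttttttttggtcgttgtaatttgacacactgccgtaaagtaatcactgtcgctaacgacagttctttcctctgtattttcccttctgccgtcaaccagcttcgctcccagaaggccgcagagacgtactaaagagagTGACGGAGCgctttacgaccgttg

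Of the 49 genes, 43 had a window in the RefSeq table, among 33469 windows of that length. The interferon-stimulated response element core was in 5 of the 43 (Psma4, Psmb3, Psmb10, Psmd7 and Psme2), or 11.6%, against 3.41% of all windows. TGACNNNGC was in 7 (16.3% against 10.1%), among them Psmb5 and Psmb6. TTCNNNGAA, which is its own reverse complement, was in 4 (9.30% against 7.67%), among them Psmb8, and CCAAT was in 20 (46.5% against 34.0%). No motif was matched in the Psmb9 window. RefSeq places Psmb8 between Tap2 and Tap1, and Psmb9 on the far side of Tap1, with 44 bases common to the 300-base windows of Psmb9 and Tap1, which run in opposite directions.

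The 11S activator genes were also lower. Psme1 read 2.25, 2.30 and 1.88 on LN111, 2.43, 2.34 and 2.27 on LN511, 2.37, 2.43 and 2.34 on Mat, and 4.24, 4.31 and 4.28 in MH, a difference of -1.99 ± 0.11 (3.97-fold, adjusted p = 8.15e-08, limma). Psme2 read 3.24, 2.86 and 2.75 on LN111, 3.28, 3.03 and 3.05 on LN511, 3.28, 3.14 and 3.31 on Mat, and 4.31, 4.24 and 4.32 in MH, a difference of -1.19 ± 0.12. Both separate the groups on every array, and unlike the immune-type subunits their 3 MH arrays lie close together. Psme2 did not pass with quantile scaling (-0.16) or without scaling (-0.14), whereas Psme1 passed under every scaling. The pseudogene Psme1-ps1 read 1.60, 1.75 and 1.46 on LN111, 1.94, 1.86 and 1.79 on LN511, 1.63, 1.70 and 1.70 on Mat, and 3.49, 3.52 and 3.58 in MH, a difference of -1.82 ± 0.09 that follows its parent gene. The probes share no run longer than 4 bases, and binding of the parent's RNA to the pseudogene's probe was not tested.

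Among the other caps, Psmf1, an inhibitor that binds the core, was 3.47-fold lower (-1.80 ± 0.09): it read 0.02, 0.11 and 0.23 on LN111, 0.07, -0.01 and 0.07 on LN511, 0.07, 0.05 and 0.02 on Mat, and 1.94, 1.84 and 1.81 in MH. Psme4, a large nuclear activator, was lower, at -1.19 ± 0.13. Psme3, an activator of the nucleus that interferon does not induce, did not pass at 0.26 ± 0.13 (adjusted p = 0.0947, limma), and it passed as higher under 3 of the 5 scalings.

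All 14 constitutive core genes were lower, from -0.81 (Psma2) to -1.40 (Psmb5), with medians of -1.05 in the alpha ring and -1.28 in the beta ring. The share of all genes called lower was 42%. In each of these 14 genes the 9 cultured arrays lay below the 3 MH arrays, a pattern found in 39 of 46 tested subunit and related genes and in 35.3% of all genes tested; no proteasome subunit showed the opposite pattern, found in 22.2% of all genes. The median of the beta ring was -0.78 with the percentile over detected probes, -0.35 with quantile scaling, where 5 of 7 genes passed (not Psmb4 and Psmb6), and -0.24 without scaling, where 0 passed. The alpha ring was -0.145 with quantile scaling and -0.005 without scaling, and none of its 7 genes passed in either. Psma3 was represented by its brighter probe, which is named Psma3l (-1.18), and the probe named Psma3 gave -1.43. One probe of Psma7 disagreed with the gene's brighter probe: it was higher in culture by 1.06 where the brighter one was lower (-1.18), and the mean of both (-0.06) did not pass.

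The 19S particle showed smaller differences than the core. Of its 17 genes, 15 were lower and none higher, with a median of -0.78, where 42% of all genes tested were lower and 30.8% higher. In the ATPase ring 5 of 6 passed: Psmc6 at -1.45 ± 0.10, Psmc5 at -1.05 ± 0.12, Psmc2 at -0.91 ± 0.13, Psmc1 at -0.72 ± 0.11 and Psmc4 at -0.55 ± 0.12. Psmc3 was read at 1.26, 1.00 and -2.49 on LN111, 1.07, 1.15 and 1.07 on LN511, 1.11, 1.20 and 1.18 on Mat, and 2.09, 2.58 and 2.01 in MH. All cultured arrays were below MH, but 1 array, LN111 replicate 3, was far below the rest. The difference of -1.50 ± 0.63 did not pass (adjusted p = 0.0535, limma), and without that array it was -1.10 and passed (adjusted p = 5.9e-05).

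Of the 3 other base subunits, the scaffolds Psmd1 and Psmd2 were lower, at -1.20 and -0.58, and the ubiquitin receptor Psmd4 at -0.78. In the lid 7 of 8 were lower, against 42% of all genes tested. Psmd7 (-1.35) and Psmd11 (-1.29) were at one end and Psmd13 (-0.33 ± 0.11) at the other. Psmd14, the enzyme that removes ubiquitin, read -0.44, -0.27 and -0.41 on LN111, -0.26, -0.61 and -0.11 on LN511, -0.41, -0.44 and -0.40 on Mat, and -0.28, 0.14 and -0.36 in MH; the groups overlapped and it did not pass (-0.20 ± 0.14, adjusted p = 0.207, limma). Under quantile scaling the 19S median was 0.03, and it was 0.26 without scaling, so the direction of the 19S particle depends on the scale. Its median lay above those of the alpha ring and the constitutive beta ring under each of the 5 scalings. Without scaling, and with the percentile over detected probes, this order is that of the main setting by construction. Only normexp background and quantile scaling check it separately.

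**Figure D4:**
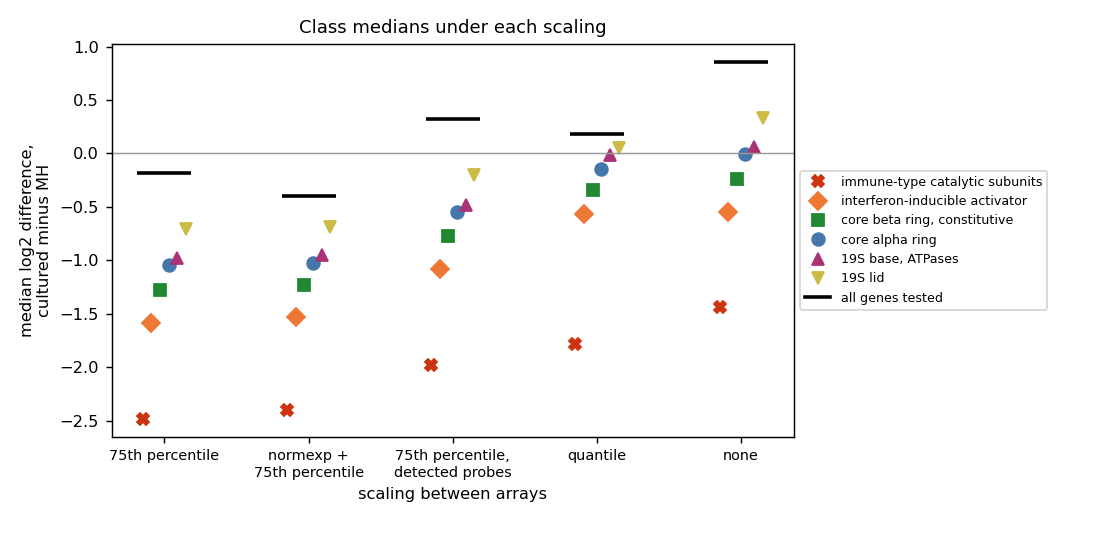
Median log2 difference between cultured groups and MH for 6 proteasome classes and for all genes tested (black bars) under 5 ways of scaling the arrays. All 6 classes lie below all genes tested under each scaling. Without scaling, and with the percentile over detected probes, the order is that of the main setting by construction. The immune-type subunits stay lowest, from -2.48 to -1.44, while the 19S lid moves from -0.71 to 0.33.

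The 6 assembly chaperones tested ranged from -2.10 to 0.38, with 3 lower and 1 higher. Of all genes tested, 42% were lower and 30.8% higher. Psmg1, which guides formation of the alpha ring, read 1.96, 1.77 and 2.04 on LN111, 1.77, 1.68 and 1.85 on LN511, 1.85, 1.90 and 1.74 on Mat, and 3.92, 4.06 and 3.83 in MH, a 4.29-fold difference (-2.10 ± 0.10, adjusted p = 3.6e-08, limma). Its partner Psmg2 ran from -2.18 through -1.998 to -1.71 in culture and read -1.997, -1.81 and -1.77 in MH, and did not pass (-0.13 ± 0.12, adjusted p = 0.354, limma). Psmg4 was lower, at -1.07. Psmg1 separates the groups and Psmg2 does not.

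Of the chaperones of the 19S base, Psmd9 was lower, at -1.69 ± 0.11, reading -0.40, -0.66 and -0.22 on LN111, -0.80, -0.67 and -0.79 on LN511, -0.73, -0.57 and -0.56 on Mat, and 1.02, 1.22 and 1.02 in MH. Psmd5 did not pass (-0.34 ± 0.14, adjusted p = 0.0568, limma). Psmd10, the oncoprotein gankyrin, was the one gene besides Psmc3ip called higher. It read -1.36, -1.74 and -1.17 on LN111, -1.42, -1.76 and -1.65 on LN511, -1.73, -1.95 and -1.46 on Mat, and -2.08, -1.76 and -2.06 in MH. The groups overlapped and the difference was small (0.38 ± 0.16, adjusted p = 0.0458, limma). The call held in 12 alternatives and was lost in 11. With the slide as a block the difference was 0.09 (adjusted p = 0.804, limma), and with normexp background 0.25 (adjusted p = 0.137, limma). Psmc3ip, not a subunit, read -2.64, -2.42 and -2.41 on LN111, -2.27, -2.15 and -2.35 on LN511, -2.51, -2.13 and -2.54 on Mat, and -3.40, -3.70 and -3.25 in MH, all cultured arrays above all MH arrays (1.07 ± 0.13). Psmb11, a thymic catalytic subunit, was close to background, with log2 values of -6.07 to -4.62 in culture and -3.61, -5.66 and -6.37 in MH, and did not pass (-0.33 ± 0.49).

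MH replicate 2 stood apart within its group, in opposite directions for both kinds of subunit. Compared with the mean of the other MH arrays, it was higher for all 14 constitutive core genes (median 0.38) and all 17 genes of the 19S particle (median 0.43). It was lower for all 3 immune-type subunits (median -0.98). All 18915 genes tested had a median of -0.01, with 9182 above and 9733 below. In a list of 22 tested genes of antigen processing and interferon signalling 19 were lower on that array (median -0.20). Markers of Kupffer cells (12 genes, median -0.02) and of lymphocytes and leukocytes (7 genes, median -0.02) were close to the other MH arrays, while those of sinusoidal endothelium (6 of 8 below, median -0.20) and hepatocytes (7 of 9 below, median -0.18) were lower on it; their part in the shift of the immune-type subunits was not tested. Without it the counts against MH changed little, to 39 lower and 2 higher, and the median to -0.96. The differences of Psmb8, Psmb9 and Psmb10 were then -3.78, -2.89 and -1.51, and without LN111 replicate 3 -3.38, -2.40 and -1.33. In culture LN111 replicate 3, with 1126 spots marked as outliers against 350 to 499 on the other arrays, was lower for the immune-type subunits by a median of -0.72 against the other LN111 arrays, and higher for Kupffer cell markers (1.01) and stellate cell markers (0.95). Without it 41 were lower and 1 higher. The shares of all genes called without MH replicate 2 or without LN111 replicate 3 are not given here.

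**Figure D5:**
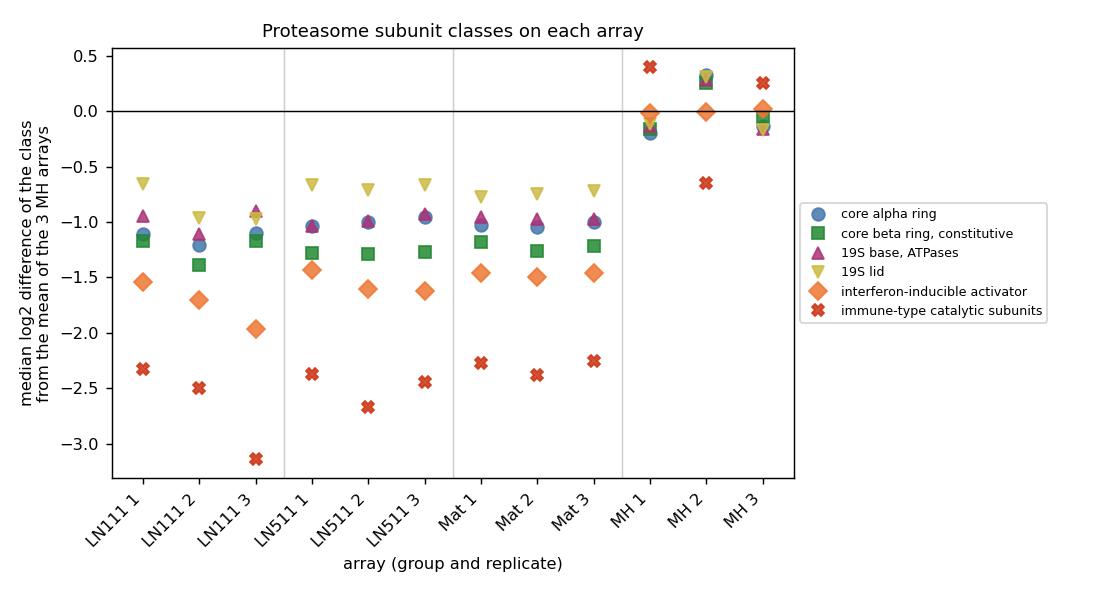
Median log2 difference of 6 proteasome classes from the mean of the 3 MH arrays, on each of the 12 arrays. On the cultured arrays the immune-type median lies at -3.14 to -2.26. On MH replicate 2 it lies at -0.65 while the beta and alpha rings lie at 0.25 and 0.33.

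Each substrate was also compared with MH by itself, in comparisons that share the MH arrays. On LN111 2 proteasome genes were higher and 41 lower (27% and 39.8% of all genes, 66.8% in all). On LN511 1 was higher and 40 lower (31.1% and 36.5% of all genes, 67.6% in all), and on Mat 1 was higher and 40 lower (26.2% and 41%, 67.3% in all). The difference of Psmb8 was -3.78 on LN111, -3.29 on LN511 and -3.30 on Mat, and that of Psmb9 was -2.65, -2.49 and -2.30. On LN111 Psmc3, whose value there rests on replicate 3, also passed at -2.30 (adjusted p = 0.023, limma); on the others it did not (-1.13 and -1.07). MH and Mat replicates 1 and 2 were on 1 slide and all other arrays on the other. Within the first slide 40 were lower and 1 higher between Mat and MH, with Psmb8 at -3.29, Psmb9 at -2.33 and Psmb10 at -1.26. With the slide as a block 34 were lower and 1 higher on LN111, 31 and 1 on LN511, and 40 and 1 on Mat; for all cultured groups together 38 were lower and 1 higher. LN111 and LN511 have no array on the slide of the MH arrays. The shares of all genes called within the first slide or with the slide as a block are not given here. These counts therefore have no background to be set against.

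Between the substrates 1 of the 48 genes passed in 1 of 3 comparisons. Psmc6, an ATPase of the base, was higher on LN111 than on LN511 (limma, where 17.9% of 17897 genes passed in either direction, 6.13% as higher and 11.8% as lower). It read -1.13, -1.41 and -1.14 on LN111, -1.75, -1.82 and -1.69 on LN511, -1.34, -1.46 and -1.29 on Mat, and 0.06, 0.10 and -0.15 in MH. The LN111 and LN511 arrays did not overlap, Mat overlapped LN111 and lay above LN511, and MH was far above all. The difference was 0.52 ± 0.13 (SE; adjusted p = 0.026, limma); it was lost with normexp background (0.48, adjusted p = 0.0529), without LN111 replicate 1 or 3, without any 1 of the LN511 arrays and without Mat replicate 1 (adjusted p from 0.053 to 0.0817). Summed stellate cell and fibroblast markers were 48.4 to 81.5 on LN111 and 2.16 to 10.8 on LN511, and their part in the Psmc6 difference was not tested. An unadjusted p under 0.05 was seen in 4 proteasome genes there, or 8.33%, against 33.0% of all genes tested.

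Between LN111 and Mat no gene on the array passed (limma, 0% of 17897). An unadjusted p under 0.05 was seen in 3 proteasome genes (6.25%, against 12.2% of all genes, limma), Psmg4 (-0.35 ± 0.12, adjusted p = 0.354), Psmd13 (0.36 ± 0.13, adjusted p = 0.355) and Psmb8 (-0.48 ± 0.20, adjusted p = 0.401). None passed between LN511 and Mat, where 8.22% of all genes did, 7.07% as higher and 1.16% as lower. The unadjusted p was under 0.05 in 1 proteasome gene (21.8% of all genes), Psmc6 (-0.39 ± 0.13, adjusted p = 0.112, limma), and the next smallest were Psmb11 (0.70 ± 0.34) and Psmc1 (0.20 ± 0.11). The limma F test over the 3 substrates gave none of the 48 (12.9% of all genes), the smallest adjusted p being 0.0568 for Psmc6, and 2 at an unadjusted p under 0.05. A p above the threshold does not show that the values are equal.

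Other genes of the pathway were read from lists by role. Of 12 tested proteasome subunits and partners outside the name rule, 8 were lower and 2 higher against MH. Of all genes tested, 42% were lower and 30.8% higher. Fbxo7, a ubiquitin ligase subunit that binds the inhibitor Psmf1, was lower, at -1.41 ± 0.09, Pomp, which places the beta subunits on the ring, at -1.60 ± 0.11, Ngly1, which removes sugars from proteins bound for the proteasome, at -1.90 ± 0.16, and Sem1, a small lid subunit, at -1.04 ± 0.09. Sem1 was -0.04 with quantile scaling and 0.003 without scaling. Without scaling Fbxo7 was -0.37 and did not pass (adjusted p = 0.175, limma). Pomp was -0.46 with quantile scaling and -0.55 without, and Ngly1 -1.24 and -0.85, and both passed in each. Nfe2l1, the transcription factor that raises proteasome genes when the proteasome is blocked, and which Ngly1 processes, was higher, at 0.99 ± 0.14 (adjusted p = 9.76e-05, limma); it was 0.63 with normexp background, 1.14 with quantile scaling and 2.03 without scaling.

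Of 17 tested genes that supply ubiquitin or deliver substrates, 12 were lower and 2 higher (42% and 30.8% of all genes tested). The shuttle factor Ubqln1 was lower, at -1.63 ± 0.10 and the segregase Vcp at -0.85 ± 0.09, while Zfand2a, a stress-induced protein of the proteasome cap, was higher, at 3.48 ± 0.32. The list's direction depends on the scale: with quantile scaling 4 were lower and 8 higher, and Vcp (0.07) changed sign, whereas Ubqln1 and Zfand2a kept theirs.

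Of 22 tested genes of antigen processing and interferon signalling, 17 were lower and 4 higher (42% and 30.8% of all genes tested). B2m, the constant chain of MHC class I, was lower, at -1.74 ± 0.14, while the guanylate-binding protein gene Gbp5 was higher, at 1.90 ± 0.13. The other genes called higher were Irf1 (0.87 ± 0.19), Gbp2 (1.94 ± 0.27) and Cxcl10 (2.70 ± 0.27). All 4 were also called higher with normexp background, with quantile scaling and without scaling. With the slide as a block Irf1 did not pass (0.86, adjusted p = 0.0596, limma). The chemokine gene Cxcl11 was well above background on 3 MH arrays and on 2 of 9 cultured arrays, and was called lower. It entered the test only through MH, where it was high, so that call was close to fixed in advance. The split depended on the scale: it was 13 lower and 7 higher with quantile scaling, and 7 lower and 5 higher without scaling. With quantile scaling the MHC class I genes RT1-A1 and RT1-A2, singled out after their values were seen, turned from called lower (-0.82 and -0.75) to called higher (0.36 and 0.41). RT1-CE1, of the same class, did not pass (0.08, adjusted p = 0.683, limma) and was called higher with quantile scaling (1.15). The peptide transporter genes Tap1 and Tap2, which flank Psmb8, were lower, at -1.12 ± 0.20 and -1.31 ± 0.23 (-0.07 and -0.27 without scaling), and Nlrc5, the activator of MHC class I genes, at -3.88 ± 0.47. On MH replicate 2 Tap1 read -2.29, against -1.21 and -1.50 on the other MH arrays.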

How the data were processed

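Total RNA (100 ng a sample) was hybridised to 12 Agilent rat arrays in 1 colour. The deposited intensity values are the processed signal of Agilent Feature Extraction 10.7, per the submitters' processing notes; per the file headers this signal was background-subtracted, with spatial and multiplicative detrending and surrogates for dim spots on all 12 arrays. The deposited value table held the same linear values, not centred (largest log2 difference 0.0072, single colour, so no direction), and was an alternative. No column belonged to another series.

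Here spots marked as outliers were dropped, spots of a probe averaged (45598 probes, 45489 kept), and log2 signal was taken relative to each array's 75th percentile. Probes were named by RefSeq accession (21109), another accession (2754), symbol (5124), older symbol (343) or the file's own name (16268). The brightest probe stood for a gene, and a gene entered the test if 1 of its probes exceeded background clearly on each of the 3 arrays in at least 1 group. Linear models were fitted with limma 3.58.1 in R 4.3.3 across all genes, over 12 arrays against MH and over the 9 cultured arrays between substrates, calling adjusted p-values (Benjamini-Hochberg) under 0.05. The scripts were tested on simulated data. Tables and figures used numpy 2.4.6, pandas 2.3.3, scipy 1.17.1 and matplotlib 3.10.9. The number of arrays limits the precision.

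The members and gene lists were chosen with earlier results of these data known. Array values are given for the exchange pairs, the 11S genes and the genes with the largest differences past the threshold, up to 5 a direction; of each context list up to 4 genes with the smallest p are named, and where nothing passed the 3 smallest p. Some genes that this rule would name are not reported here. Nfe2l1, Tap1, Tap2, Nlrc5, RT1-A1, RT1-A2, RT1-CE1, Irf1, Gbp2, Cxcl10, Psmd14, Psmg2 and Psmc3 were singled out after their values were seen. The alternatives were normexp background (offset 50), other scalings, filters and probe rules, only the groups compared, slide and replicate number as blocks, and each array left out. Fits within a slide were added after seeing the data.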

Additional observations from a re-analysis of the deposited data

Results flagged for a closer look

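Psmc6, an ATPase of the 19S base, was the one proteasome gene that passed in a comparison between cultured groups. It was 0.52 higher on the log2 scale on LN111 than on LN511 (limma, adjusted p = 0.026), with all 3 LN111 arrays above all 3 LN511 arrays. The call held in 11 alternatives and was lost in 10, and 17.9% of all genes passed in that comparison. By the limma F test over the 3 substrates it did not pass (adjusted p = 0.0568).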

How the results depend on the processing

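The scale between arrays decided most counts. With quantile scaling 23 proteasome genes passed for all cultured groups against MH, 21 for LN111, 20 for LN511 and 16 for Mat; without scaling these were 14, 12, 16 and 18, and 46 passed between LN511 and Mat, all lower. With normexp background 1 passed between LN511 and Mat. The shares of all genes called under these settings are not given here. Between LN111 and LN511 the call of Psmc6 was lost, leaving 0, with normexp background, no filter, only the groups compared and within slide 2 (limma adjusted p from 0.0529 to 0.0894). The difference of Psmb9 and Psmb6 passed with quantile scaling (-1.54) and with the mean of probes (-1.30; adjusted p = 0.0136 and 0.0409, exact permutation tests).

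Differences from MH that changed sign without scaling were Psma1 0.22, Psma2 0.23, Psma6 0.21, Psmb11 0.72, Psmc1 0.32, Psmc2 0.13, Psmc4 0.49, Psmd2 0.47, Psmd3 0.36, Psmd4 0.26, Psmd5 0.71, Psmd6 0.33, Psmd8 0.34, Psmd12 0.15, Psmd13 0.71, Psmd14 0.84 and Psmg2 0.92, and for Mat against MH Psmb5 0.25, Psmb6 0.38, Psmb7 0.18, Psmb10 0.35 and Psme2 0.56. Without scaling Psmd13 also turned to -0.25 between LN111 and Mat, and Psmb11 to -0.39 and Psmc1 to -0.89 between LN511 and Mat. With quantile scaling they were Psma1 0.068, Psma6 0.25, Psmc1 0.29, Psmc2 0.056, Psmc5 0.022, Psmd2 0.39, Psmd4 0.057, Psmd6 0.21, Psmd8 0.073, Psmd12 0.034, Psmd13 0.14, Psmd14 0.17 and Psmg2 0.050, and Psme2 0.055 for Mat. With the percentile over detected probes they were Psmb11 0.18, Psmd5 0.17, Psmd13 0.17, Psmd14 0.30 and Psmg2 0.38. The cause was not tested.

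Leaving out 1 array gave 41 to 43 calls for all cultured groups against MH, 41 to 43 for LN111, 37 to 42 for LN511, 40 to 42 for Mat, 0 to 2 between LN111 and LN511 and 0 in the other substrate comparisons. The shares of all genes called in these fits are not given here. The pairs ran from -2.45 to -1.79 (Psmb8 and Psmb5), -1.87 to -0.93 (Psmb9 and Psmb6) and -0.23 to 0.20 (Psmb10 and Psmb7), the last turning without MH replicate 2. Psmb11 turned to 0.47 without MH replicate 1 and was -0.90 without MH replicate 3.

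Same-numbered deviations correlated at 0.47 to 0.72 for replicates 1 and 2 of the cultured groups and at 0.066 to 0.13 for replicate 3, and an array matched its own number best in 14 of 18 cases among cultured groups, a hint of pairing from the data that no label gives. By the rule that each pair exceed 0.1, LN511 and Mat were paired, and LN111 with either was not. With MH the correlations were -0.030 to 0.063 (own number best in 6 of 18), which gives no pairing. With the replicate number as a block 44 proteasome genes passed for all cultured groups against MH, 43 for LN111, 40 for LN511, 41 for Mat, 1 between LN111 and LN511 and 0 in the others. The shares of all genes called with that block are not given here.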
